A study of Mus musculus with 10 samples.

Results

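H3K4me3 in DP nEnd was compared with H3K4me3 in Pdgfra+ nEnd, using the 3 libraries of each population, 6 of the 10 libraries of the series. nEnd is naive extraembryonic endoderm, a mouse culture of primitive endoderm (PrE) identity. All libraries came from a single untreated line, the OCT4-mCherry reporter, whose cells were sorted by FACS on OCT4-mCherry and on PDGFRA stained at the surface. DP nEnd carried both signals, Pdgfra+ nEnd carried PDGFRA alone, and Oct4+ nEnd, the 4 other libraries, carried OCT4-mCherry alone and is given here only for reference. The comparison asks which promoters separate PrE-like cells that still express OCT4 from those that have lost it.

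OCT4, the product of Pou5f1, is a transcription factor of the pluripotent epiblast that is also present in the early PrE and disappears as the endoderm matures. PDGFRA is a receptor tyrosine kinase at the surface of PrE cells. H3K4me3 is a histone mark of promoters, broad at many lineage genes and most frequent where promoters are rich in CpG. In CUT&Tag an antibody brings the Tn5 transposase to the mark, which inserts sequencing adapters into nearby DNA.

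Each library is a list of peaks with the coverage summed over the peak (total signal) and its highest coverage. Coverage was not scaled between libraries, so each peak was placed by its percentile by total signal within its own library, and a gene took its best peak within 1000 bp upstream to 100 bp downstream of any protein-coding start site. The DP lists held 7575 to 8836 peaks, and the Pdgfra+ lists 10545 and 7800 in replicates 1 and 3 and fewer in replicate 2. They marked 9061 ± 634 genes per DP nEnd library and 8959 ± 1889 per Pdgfra+ nEnd library (SD, n = 3 each), a difference smaller than the SD of either population (exact two-sided permutation test, p = 1.0, where 3 against 3 cannot go below 0.10). The lowest total signal was 50231 to 53198 in DP nEnd and 25245 to 27191 in Pdgfra+ nEnd, in coverage that is not scaled. As a ratio to the median total of the same list it was 0.436, 0.359 and 0.431 in the DP replicates and 0.190, 0.567 and 0.391 in the Pdgfra+ replicates. That median itself depends on how far the list reaches, so the ratio does not show where calling stopped. In Pdgfra+ replicates 1, 2 and 3, 14.15%, 54.96% and 30.95% of the peaks lay under the lowest DP total. Pdgfra+ replicate 1 held the most peaks, and 1286 of the 1287 genes marked in 1 Pdgfra+ library and no DP library were marked there. Pdgfra+ replicate 2 held the fewest, with a median promoter peak width of 2207 bp against 3036 to 4229 bp in the other libraries. Across the 7088 genes marked in all 6 libraries, percentiles correlated at a Spearman's rho of 0.95 to 0.959 among the DP libraries and at 0.824 to 0.871 between Pdgfra+ replicate 2 and the others. These values are across genes, which are not independent.

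The labels were held against defining genes. Gata6, Foxa2, Sox17 and Pdgfra, PrE genes, lay at or above the 98.2 percentile in all 6 libraries. Fibroblasts also carry PDGFRA and nEnd is grown on feeder fibroblasts, so 17 fibroblast markers were read as well. Of these, 0 to 2 were marked per library (0 to 1 in DP nEnd, 0 to 2 in Pdgfra+ nEnd), and Col1a1, Col1a2, Col3a1, Thy1 and Pdgfrb had no peak in any of the 6. Of 14 mesoderm genes, 1 was marked in each DP library and 3, 0 and 0 in Pdgfra+ replicates 1, 2 and 3.

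Peaks found in every library of 1 population and none of the other were mostly those of DP nEnd in the full lists, and much less so in lists of equal length. Of 11082 genes marked in at least 1 of the 6 libraries, 25 had a promoter peak in all 3 libraries of DP nEnd and in 0 of the 3 Pdgfra+ libraries (0.226%), and 1 gene had the opposite pattern (0.00902%). Over all differences in presence the counts were nearly even, with 1654 genes marked in more DP libraries (14.9%) and 1582 in more Pdgfra+ libraries (14.3%). Most of both came from single Pdgfra+ libraries. Of the 1582, 1286 were marked in Pdgfra+ replicate 1 alone, and of the 1654, 1020 were missing from Pdgfra+ replicate 2 alone. The 25 genes included the pluripotency regulators Pou5f1, Nanog, Sox2, Esrrb and Utf1, the TGF-beta family ligands Nodal, Gdf3, Inhbb and Bmp4, and the proprotein convertase gene Pcsk6. The gene marked in Pdgfra+ nEnd alone was Zfp90, a zinc finger repressor, at the 23.6, 1.54 and 6.17 percentiles. A single gene cannot pass a test of presence with 3 libraries against 3, so these are counts. With equal numbers of peaks per library the counts were 85 and 55, and with 4000 peaks 56 and 50. Without Pdgfra+ replicate 1 the 25 became 245, and the 1 gene became 20 without DP replicate 2, 30 without Pdgfra+ replicate 2 and 7 without Pdgfra+ replicate 3. In sorted bulk samples a mark in a share of the cells and a weaker mark in every cell cannot be told apart, which holds for every value here.

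Sequence around these promoters is shown for 5 of the 25 genes and, for contrast, for Ptger3, whose promoter carried more signal in Pdgfra+ nEnd. Each line gives the 250 bases before a start site 5′ to 3′ as RefSeq has them on GRCm38.p6, and capitals mark CpG dinucleotides.
Pou5f1 (chr17:35505782-35506031, plus strand): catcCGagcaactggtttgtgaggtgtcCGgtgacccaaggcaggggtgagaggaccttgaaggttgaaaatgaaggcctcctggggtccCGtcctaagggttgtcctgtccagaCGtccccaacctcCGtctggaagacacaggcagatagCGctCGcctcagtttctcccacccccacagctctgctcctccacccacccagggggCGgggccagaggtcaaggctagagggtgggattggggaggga
Nanog (chr6:122707239-122707488, plus strand): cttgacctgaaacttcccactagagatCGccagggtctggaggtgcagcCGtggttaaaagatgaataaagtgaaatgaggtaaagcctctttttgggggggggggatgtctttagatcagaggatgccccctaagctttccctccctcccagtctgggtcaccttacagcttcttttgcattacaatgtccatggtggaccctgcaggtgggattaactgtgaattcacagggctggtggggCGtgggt
Nodal (chr10:61417722-61417971, plus strand): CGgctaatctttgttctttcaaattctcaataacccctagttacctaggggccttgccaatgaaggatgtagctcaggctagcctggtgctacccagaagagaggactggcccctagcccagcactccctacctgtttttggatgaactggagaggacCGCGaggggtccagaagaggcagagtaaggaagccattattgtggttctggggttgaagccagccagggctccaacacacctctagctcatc
Bmp4 (chr14:46390670-46390919, minus strand): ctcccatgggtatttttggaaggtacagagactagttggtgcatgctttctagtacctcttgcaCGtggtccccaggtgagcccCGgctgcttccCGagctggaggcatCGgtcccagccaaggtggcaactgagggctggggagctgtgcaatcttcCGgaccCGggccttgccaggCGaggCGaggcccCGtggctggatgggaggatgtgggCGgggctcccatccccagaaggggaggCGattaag
Amn (chr12:111270846-111271095, plus strand): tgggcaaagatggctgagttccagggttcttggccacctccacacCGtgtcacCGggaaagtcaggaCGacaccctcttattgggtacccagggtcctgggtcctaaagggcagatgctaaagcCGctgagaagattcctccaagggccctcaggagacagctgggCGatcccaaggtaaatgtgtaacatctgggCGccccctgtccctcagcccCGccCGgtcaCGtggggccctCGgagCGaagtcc
Ptger3 (chr3:157566626-157566875, plus strand): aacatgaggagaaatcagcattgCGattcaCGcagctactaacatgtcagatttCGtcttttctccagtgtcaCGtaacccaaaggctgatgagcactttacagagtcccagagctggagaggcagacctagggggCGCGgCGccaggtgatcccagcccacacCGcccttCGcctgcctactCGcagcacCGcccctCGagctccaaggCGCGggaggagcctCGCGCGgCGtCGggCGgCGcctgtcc

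CpG is sparse in Nanog and Nodal, with 3 each, and denser in Ptger3, with 21. RefSeq promoter windows matched 18 of the 25 genes, and where a gene had several start sites the window with the most CpG was taken. These 18 windows held a median of 10 CpG (0 to 40), against 20 for the genes marked in all 6 libraries, 11 for all protein-coding genes with a window and 3 for genes marked in no library of the series. Inhbb, with 21, Sox2, with 27, Vegfc, with 30, and Pcsk6, with 40, were above the median of the shared genes. The GC box CCCGCCC was present on either strand in 44.4% of the 18 windows, in 53.1% of the windows of genes marked in all 6 libraries and in 34.0% of all windows. The octamer ATGCAAAT, AGATAA and TCAAGGTCA matched 0 of the 18, against 1.48%, 8.49% and 0.279% of all windows, and CATTGT matched 1 of 18 (5.56%, against 8.72% of all). A match is a match of letters, not a bound site. Every letter had to match: ttttgcat in the Nanog window differs by a letter from the octamer on the other strand and was not counted. With 18 windows and such shares over all windows, 0 matches tell little.

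Among the pluripotency genes of the 25, Pou5f1 and Esrrb had the highest mean percentiles by total signal in DP nEnd. In replicates 1, 2 and 3 Pou5f1 was at 70.2, 62.2 and 72.4. Esrrb, an orphan nuclear receptor that sustains naive pluripotency, lay at 66.0, 63.3 and 37.4, with widths of 18505, 15022 and 9070 bp. By highest coverage Esrrb was at 0.806, 3.12 and 1.07, and Pou5f1 at 8.45, 7.25 and 6.81. Utf1, a chromatin factor of pluripotent cells, was at 74.9, 31.5 and 30.2, so replicate 1 stood above the other 2. Klf12, a Krüppel-like transcription factor, was even between replicates at 46.7, 47.0 and 42.3. By total signal Nanog and Sox2 were weaker, at 11.5 to 19.6 and 21.2 to 40.4.

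Of 32 genes of naive pluripotency, 20 were marked in at least 1 of the 6 libraries. In 13 the mark was found in more DP than Pdgfra+ libraries and in 0 in fewer, beside 14.9% and 14.3% of the 11082 genes, and 7 were marked in 3 of 3 against 0 of 3 (background 0.226%). With equal numbers of peaks per library this last count was 6, beside 1% of all genes. Klf2 was marked in all DP libraries at 41.0, 40.8 and 30.4 and in Pdgfra+ replicate 1 alone at 24.2. Zfp42 was marked in 2 DP libraries at 36.6 and 33.9 and in Pdgfra+ replicate 1 at 1.07. Klf4 and Sall4, pluripotency regulators, were at or above 98.7 in every library of both populations. Fgf4, Prdm14 and Nr5a2, which had peaks in 4 of 4 Oct4+ libraries, had none in the 6 libraries compared. The list as a whole was chosen with such results known and gives no independent support for its direction.

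Of the 25, 4 encode ligands of the Nodal, activin and BMP pathways. Nodal, a TGF-beta family ligand needed for epiblast and anterior-posterior patterning, lay at 30.4, 37.9 and 31.6 in DP nEnd. Gdf3, a ligand related to Nodal, lay at 7.36, 19.8 and 14.2. Inhbb, which encodes an activin subunit, lay at 13.0, 17.0 and 14.9. Pcsk6, a convertase that cleaves the Nodal precursor, was near the end of the lists at 5.41, 14.9 and 1.89. Each was without a peak in the 3 Pdgfra+ libraries.

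Of 21 genes of the Nodal and activin pathway, 17 were marked in at least 1 library, 4 of them in all DP and no Pdgfra+ libraries (background 0.226%) and 0 in the opposite pattern (background 0.00902%). With equal numbers of peaks per library 1 gene of the list, Nodal, was marked in DP nEnd alone, beside 1% of all genes, and Gdf3, Inhbb and Pcsk6 were not. Of the 11 marked in all 6 libraries, 3 lay higher in every DP library than in every Pdgfra+ library and 0 lower, beside 3.05% and 7.29% of all 7088 genes so marked. By normal scores these were 2 and 1, beside 9.76% and 11.1%. Normal scores rank the 7088 genes again within each library and spread these ranks as a normal distribution. The receptors and SMADs were shared: Acvr1b, Acvr2a, Acvr2b, Smad2, Smad3 and Smad4 were marked in all 6 libraries. Foxh1, the partner of the SMADs at Nodal targets, was at 58.6, 61.4 and 56.8 in DP nEnd, at 51.2 and 22.1 in Pdgfra+ replicates 1 and 3 and unmarked in replicate 2. Lefty1 and Lefty2, Nodal inhibitors, had no peak in either population. In the BMP pathway Bmp4 lay at 43.1, 45.4 and 31.5 in DP nEnd and was unmarked in Pdgfra+ nEnd, whereas Bmp2 lay between 85.5 and 91.6 in all 6 libraries. Of the 18 BMP genes, 15 were marked in at least 1 library. Of these, 7 were marked in more DP than Pdgfra+ libraries and 0 in fewer, beside 14.9% and 14.3% of all genes marked in at least 1 library. The DP replicates marked 15, 15 and 14 BMP genes and the Pdgfra+ replicates 14, 8 and 11. Of the 8 marked in all 6 libraries, 0 lay higher and 0 lower in DP nEnd without overlap, beside 3.05% and 7.29%. Their median difference was -2.22 percentile points.

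The remaining members had mixed roles. Cldn4 (5.09, 15.4 and 19.4) and Jam2 (16.5, 28.6 and 11.8) encode a claudin and a junctional adhesion molecule. Bcat1, a branched-chain aminotransferase, lay at 32.1, 23.3 and 9.27, and Pfkp, a phosphofructokinase of glycolysis, at 3.43, 14.5 and 6.59. Notum, which removes the lipid from Wnt ligands, lay at 8.67, 23.2 and 15.6. Vegfc, Stmn2 and Bnc2 were at or below 11.7 in every DP library, and Lemd1 lay between 13.8 and 28.2. For 3 further genes the peak was shared with a neighbour. The peak at Mymx, at 76.5 to 81.6, is also that of Slc29a1, which was marked in 2 Pdgfra+ libraries, and those at Gm17349 and BC028528 are also those of Smarcd1 and Aph1a, which were marked in all 3. Their marks cannot be assigned, which leaves 22 genes with a peak of their own. Apart from the first 10 in order of their lowest percentile and the members of the gene lists, these names were chosen after their values were seen.

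Amn, the membrane anchor of the cubilin receptor of visceral endoderm, differed from the other 24. It lay at 18.4, 29.3 and 32.6 in DP nEnd and was unmarked in all 3 Pdgfra+ and all 4 Oct4+ libraries. Cubn, which encodes cubilin itself, was marked in DP replicates 1 and 2 at 3.24 and 15.1 and in no other library of the series. With equal numbers of peaks per library Amn was not among the genes marked in DP nEnd alone. The other 24 genes were marked in 4 of 4 Oct4+ libraries, which was so for 34.9% of the 11082 genes, and for 23 of the 25 the lowest Oct4+ percentile was above the highest DP percentile. Nodal, for example, was at 95.7 to 99.1 in Oct4+ nEnd, and the median over the 24 genes was 89.2 to 97.2 per Oct4+ library.

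**Figure D1:**
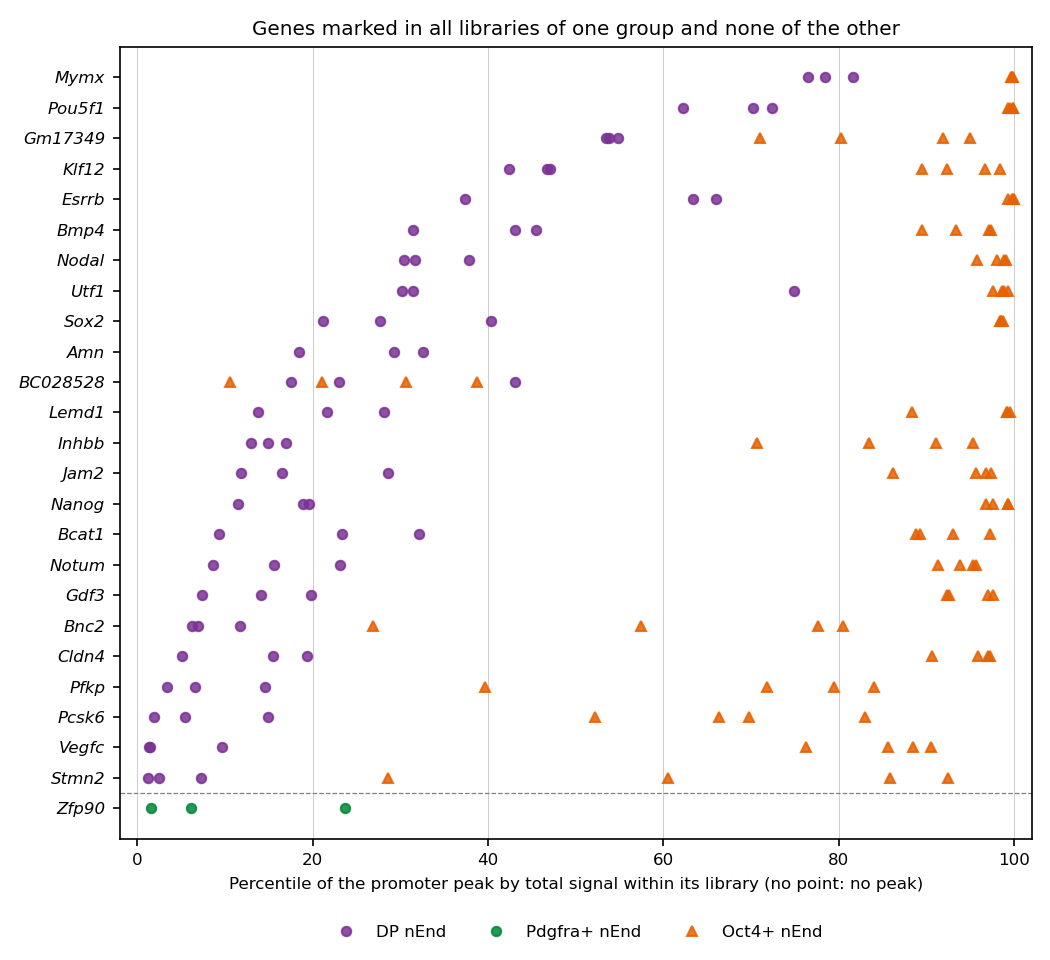
Percentile by total signal of the promoter peak (x axis, 0 to 100 within each library) for 24 of the 25 genes marked in DP nEnd alone and, under the dashed line, Zfp90. Each point is 1 library: the DP points lie left of the Oct4+ triangles except at BC028528, where they mix, and at Amn, which has no triangle.

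For their total signal these peaks were broad and low, in DP nEnd and, less low, in Oct4+ nEnd. Their median width per library was 6496, 6453 and 5407 bp in replicates 1, 2 and 3, against 4031, 4222 and 3581 bp over all peaks. Ranked by highest coverage, their median percentile was 0.923, 2.57 and 1.07, against 18.9, 28.5 and 17.6 by total signal. The total signal ranked above the highest coverage for 24, 24 and 22 of the 25, and for 44.3% to 44.9% of all peaks. In Oct4+ nEnd the peaks at 24 of these promoters were also wide, with medians of 5829 to 9656 bp against 3437 to 4121 bp over all peaks. There the total signal ranked above the highest coverage for 22 or 23 of the 24, and for 44.1% to 47.7% of all peaks. The median percentile of the 24 by highest coverage was 64.8 to 86.2. Nanog shows the pattern: its peak spanned 5432 to 7905 bp in DP nEnd, at the 0.234 to 0.492 percentiles by highest coverage. Gm17349, whose peak is shared with Smarcd1, did not, at 59.1 to 72.2.

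**Figure D2:**
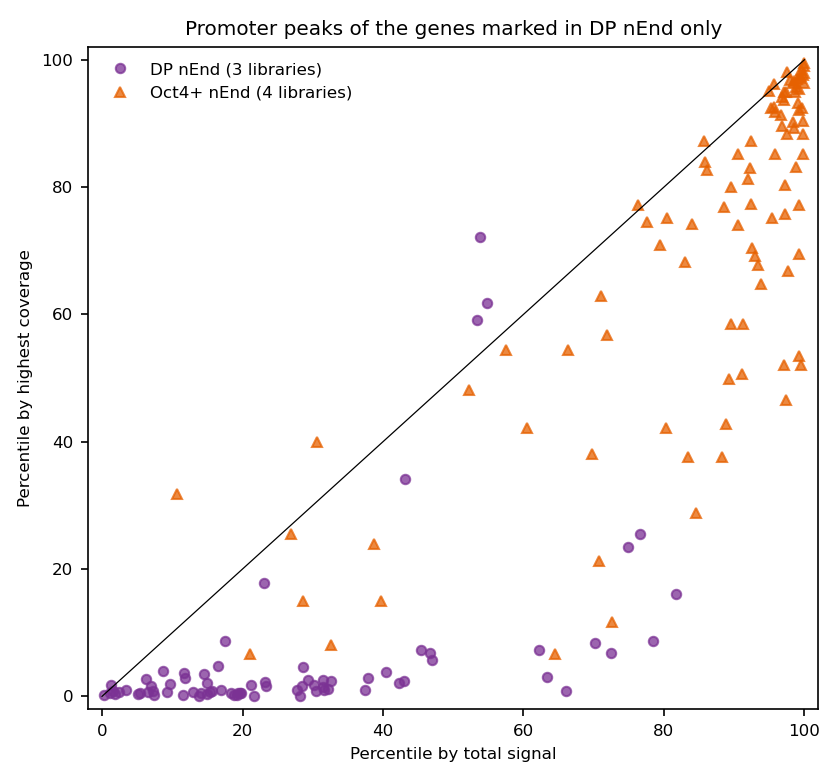
Percentile by highest coverage (y axis) against percentile by total signal (x axis) for the promoter peaks of the 25 genes, 1 point per gene and library. The line marks equal percentiles, and most DP points lie near the bottom at any total signal while the Oct4+ triangles lie nearer the line.

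Of 79 genes with a peak in 4 of 4 Oct4+ and 0 of 3 Pdgfra+ libraries, 24 were marked in 3 DP libraries, 9 in 2, 6 in 1 and 40 in 0. Their median mean percentile in Oct4+ nEnd was 94.1, 76.7, 70.8 and 52.0 in that order. Some genes with strong Oct4+ marks had no peak in the DP lists. Fgf4, which encodes the FGF ligand of the epiblast, lay at 83.2 to 94.7 in Oct4+ nEnd and was among them.

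With the lists cut to the number of peaks in the shortest one, keeping those of highest total signal, 85 of 8464 genes were marked in DP nEnd alone (1%) and 55 in Pdgfra+ nEnd alone (0.65%). Of the 85, 10 were among the 25 of the full lists, and Zfp90 was not among the 55. On percentiles in these lists limma called 1 gene in each direction (0.0157% each), Gemin7 higher and Ptger3 lower in DP nEnd, and libraries did not overlap for 10.2% of 6383 genes higher in DP nEnd and 10% higher in Pdgfra+ nEnd. Of the 85 genes, 47 were marked in 4 of 4 Oct4+ libraries and 6 in none. Of the 55 genes, 0 were marked in 4 of 4 and 27 in none. Over all 8464 genes 45% were marked in 4 of 4 and 6.38% in none, so the 85 lie near that background and the 55 away from it. Most genes of both sets had weak peaks in the full lists of the other population. Of the 85, 27 were marked in 1 and 48 in 2 full Pdgfra+ lists, at 38.1 or below. Of the 55, 1 was marked in 1, 13 in 2 and 41 in 3 full DP lists, at 25.8 or below.

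At the 7088 promoters marked in all 6 libraries, the percentile itself showed no call. limma gave 0 genes higher in DP nEnd and 0 higher in Pdgfra+ nEnd at a Benjamini-Hochberg adjusted p under 0.05 (0% each), with 376 genes at an unadjusted p under 0.05 and a lowest adjusted p of 0.316. The same genes were then ranked again within each library, and the ranks were spread as normal scores. On these limma called 14 genes higher in DP nEnd (0.198%) and 5 higher in Pdgfra+ nEnd (0.0705%). The log2 total signal after quantile normalization gave the same 19 genes. With the new ranks left as percentiles, limma called 1 gene in each direction. For all 19 the libraries of the populations did not overlap, which held for 216 genes higher in DP nEnd (3.05%) and 517 higher in Pdgfra+ nEnd (7.29%) by percentile. By normal scores these were 692 (9.76%) and 789 (11.1%). Ranks among the 7088 genes without the normal spread gave these same counts. The calls depended on single libraries. Normal scores gave 2, 1 and 8 genes higher in DP nEnd without DP replicates 1, 2 and 3, of which 1, 0 and 1 were among the 14, and 4, all of them among the 14, without Pdgfra+ replicate 3. They gave 52 without Pdgfra+ replicate 1, all 14 included, and 26 without the narrow replicate 2, 13 of the 14 included. The 5 genes higher in Pdgfra+ nEnd fell to 1, which was among the 5, when any 1 DP library was left out and to 0 without Pdgfra+ replicate 3. Without Pdgfra+ replicate 1 there were 7, of which 3 were among the 5, and without replicate 2 there were 8, which included all 5. The 19 genes are named after their values were seen.

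The genes higher in DP nEnd included receptors and regulators of signalling. Epha2, an ephrin receptor kinase, lay at 91.5, 92.4 and 91.6 in DP nEnd and at 71.2, 30.8 and 56.2 in Pdgfra+ nEnd, a normal score difference of 1.43 ± 0.161 (SE, limma adjusted p = 0.0315). Epha4, of the same receptor family, lay at 81.9, 87.4 and 85.5 against 65.8, 49.0 and 48.8 (limma adjusted p = 0.0359). Rarg, a retinoic acid receptor, lay at 93.8, 92.1 and 92.2 against 77.4, 67.0 and 76.3 (limma adjusted p = 0.0383). Dusp4, a phosphatase that inactivates ERK, lay at 95.9, 94.5 and 93.0 against 85.4, 64.0 and 70.1 (limma adjusted p = 0.0383). The DP libraries sat close together in each case, and the Pdgfra+ libraries were spread below them.

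The others were Cmip, Hs3st3b1, Glo1, Cxxc5, Sgk1, Zfp961, Klf9, Gemin7, Zfp219 and Tmem253. Cmip, an adaptor protein, differed most by percentile, with a mean of 85.9 ± 2.01 in DP nEnd against 36.3 ± 24.2 in Pdgfra+ nEnd (SD, n = 3 each). Zfp219 and Tmem253 share a promoter peak in the DP libraries and in Pdgfra+ replicate 3, so they are not independent. The peak of Gemin7, an SMN complex subunit, is shared with Zfp296 in at least 1 library, so its values may not be its own. All 14 were marked in 4 of 4 Oct4+ libraries, which was so for 50.2% of the 7088 genes. Rarg, Sgk1 and Gemin7 lost their direction when peaks were ranked by highest coverage, with differences of -9.52, -0.761 and -0.499 percentile points.

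The 5 genes higher in Pdgfra+ nEnd were Ptger3, Rab15, Ppp1r16b, Kcnq5 and Acaa2. Ptger3 (GRCm38 chromosome 3, 157566892 to 157645888), a prostaglandin E2 receptor, lay at 21.4, 40.4 and 26.5 in DP nEnd and at 86.8, 80.0 and 76.8 in Pdgfra+ nEnd, a normal score difference of -1.82 ± 0.176 (SE, limma adjusted p = 0.0186). It was unmarked in all Oct4+ libraries. Rab15, an endosomal GTPase, lay at 42.1, 54.3 and 48.7 against 83.8, 83.7 and 80.8 (limma adjusted p = 0.0359). Ppp1r16b, a regulatory subunit of protein phosphatase 1, lay at 58.5, 60.6 and 56.0 against 89.2, 78.1 and 84.9 (limma adjusted p = 0.0315). Kcnq5, a potassium channel, averaged 69.9 ± 2.60 against 89.8 ± 4.92, and Acaa2, a thiolase of mitochondrial fatty acid oxidation, averaged 76.5 ± 3.52 against 91.0 ± 3.13 (SD, n = 3 each). Of the 5 genes, 0 were marked in 4 of 4 Oct4+ libraries and 3 in none, which was so for 3.78% of the 7088.

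Of the 216 higher in DP nEnd by percentile, 89.8% were marked in 4 of 4 Oct4+ libraries, and of the 517 higher in Pdgfra+ nEnd 34.8% were, beside 50.2% of all genes tested. These are shares and were not tested.

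**Figure D3:**
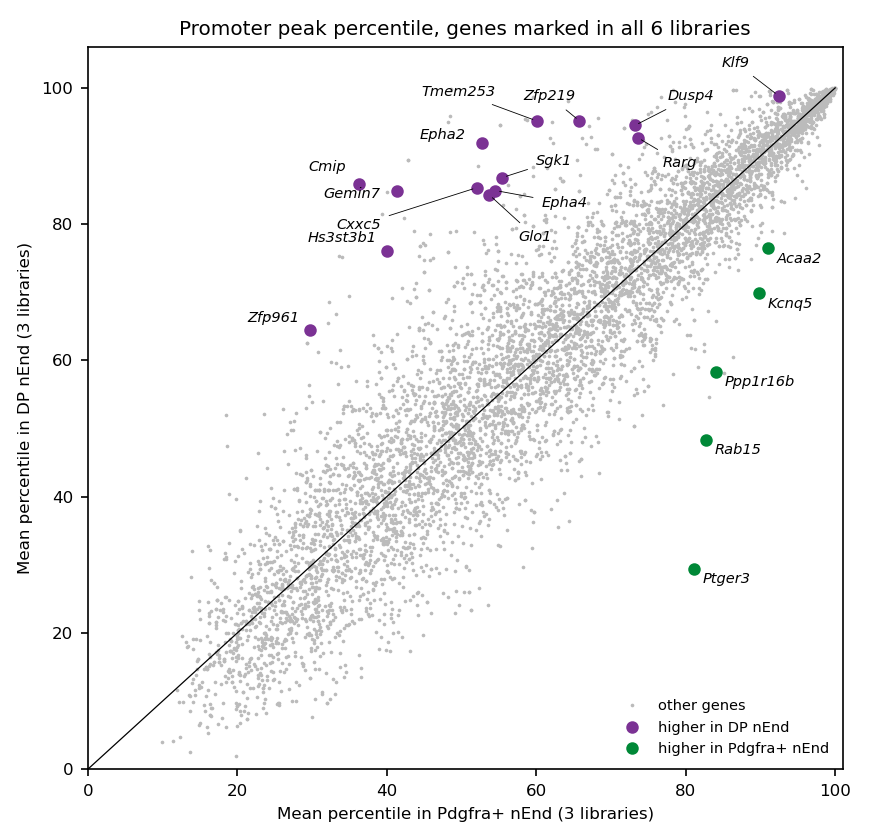
Mean percentile in DP nEnd (y axis, 3 libraries) against Pdgfra+ nEnd (x axis, 3 libraries) for the 7088 genes marked in all 6 libraries. Purple and green points are the 14 and 5 genes called on normal scores, and grey points as far from the line are genes whose libraries overlapped or varied more.

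FGF and ERK signalling directs cells of the inner cell mass to PrE, and its targets include inhibitors of the pathway itself. Of 36 genes of the pathway, 22 were marked in all 6 libraries, and 6 of these lay higher in every DP than in every Pdgfra+ library (background 3.05%), with 2 the other way (background 7.29%). By normal scores these were 7 and 4, beside 9.76% and 11.1%. The 6 were Spry2, Spred1, Spred2, Dusp4, Dusp6 and Il17rd, each known as an inhibitor of the pathway, a grouping made after their values were seen and not tested. Dusp6, an ERK phosphatase, lay at 91.5, 86.5 and 83.3 in DP nEnd and averaged 59.6 ± 14.8 in Pdgfra+ nEnd (SD, n = 3). Il17rd, a membrane inhibitor of FGF receptors, lay at 53.9, 60.9 and 62.6 against 47.0, 20.5 and 36.7. Dusp4 alone passed on normal scores, and the other 5 had limma adjusted p-values of 0.0557 to 0.383 there.

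Spry4, a further inhibitor, lay at 72.3, 72.2 and 75.9 in DP nEnd and was found in Pdgfra+ replicate 1 alone, at 22.7. Spry1, Etv4 and Etv5, the last of these ERK-responsive transcription factor genes, were marked in 3 of 3 DP libraries and in 2, 1 and 2 Pdgfra+ libraries. With Spry4 these were the 4 of 32 marked genes of the list found in more DP libraries, and 3 were found in more Pdgfra+ libraries, each in replicate 1 alone at 8.88 or below. These counts are no larger than the background of 14.9% and 14.3%. Among the kinases between receptor and nucleus, Braf, Map2k1 and Mapk3 overlapped between the populations, and Map2k2 lay lower in DP nEnd (78.2 to 83.6 against 84.4 to 88.6), as did the immediate early gene Egr1 (94.9 to 96.0 against 97.2 to 97.6). The list's median difference over its 22 genes was 1.55 percentile points, beside 0.133 over all genes tested.

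JAK and STAT signalling, which LIF activates, overlapped at most genes. All 19 genes had a peak in at least 1 library and 18 in all 6, with 1 gene not overlapping in each direction, a share near the 3.05% and 7.29% of all genes tested, and 2 and 3 by normal scores, beside 9.76% and 11.1%. Socs2, a feedback inhibitor, lay at 75.2, 71.9 and 74.1 in DP nEnd against 62.5, 40.7 and 48.9, and Pias3, a STAT3 inhibitor, lay lower in DP nEnd (85.8 to 88.9 against 90.6 to 92.9). Lifr, Il6st, Jak1 and Stat3 overlapped. Their differences were smaller than the spread between the Pdgfra+ libraries, which does not show that they are equal.

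**Figure D4:**
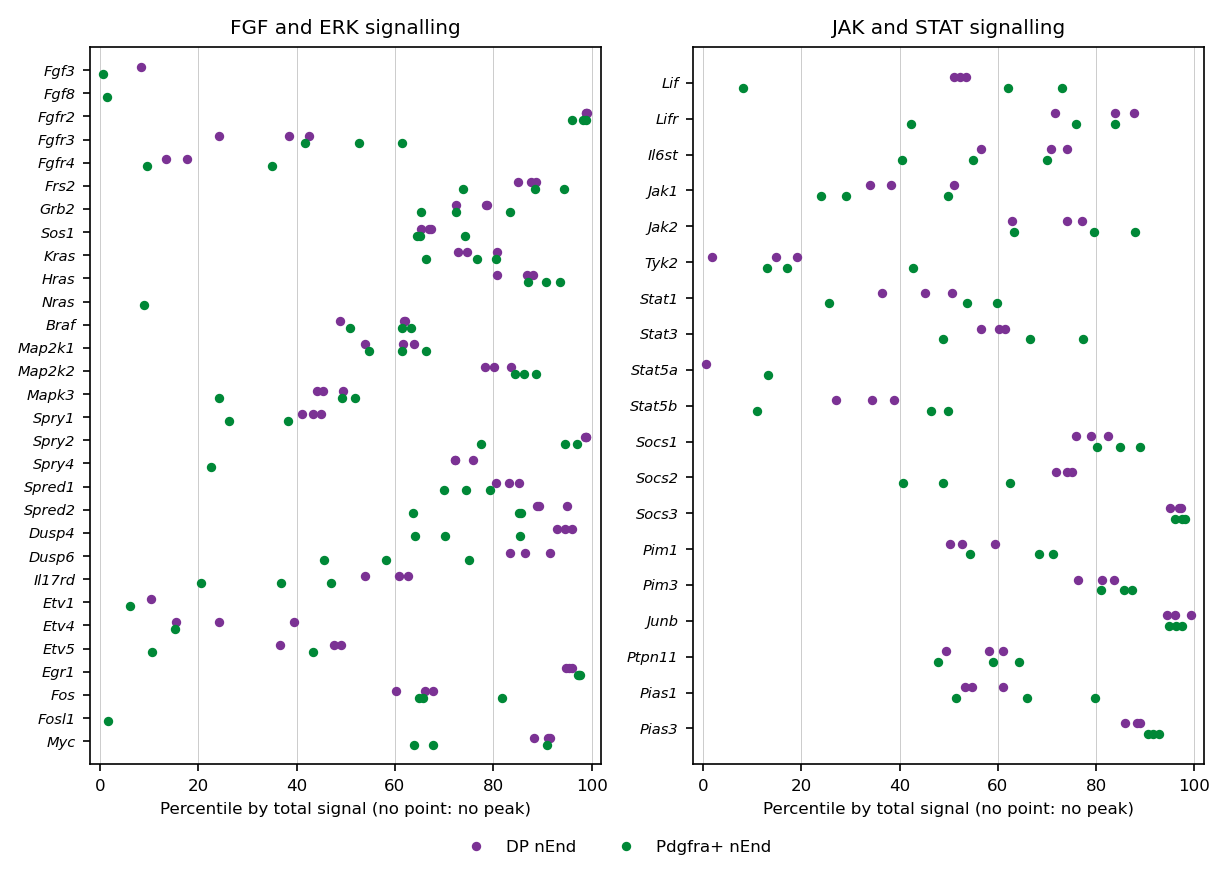
Percentile by total signal (x axis) of the promoter peaks of FGF and ERK genes (left) and JAK and STAT genes (right), with 1 point per library and none where no peak was called. Purple DP points lie right of green Pdgfra+ points at Spry2, Spred1, Spred2, Dusp4, Dusp6 and Il17rd, and overlap them at most other genes.

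Most PrE genes were marked in both populations. In all genes tested, 3.05% lay higher in DP nEnd without overlap and 7.29% lower, and the counts in the lists that follow are set beside these shares. The shares depend on the scale, being 9.76% and 11.1% by normal scores and 10.2% and 10% with equal numbers of peaks, so these counts hold for the percentile in the full lists. Of 23 PrE regulators, 17 were marked in all 6 libraries, with 2 higher in DP nEnd without overlap (Klf5 and Sall1) and 1 lower (Cited1, at 61.7 to 66.1 against 67.4 to 82.2), and 0 were called on either scale. By normal scores 2 lay higher and 2 lower without overlap. Of 25 basement membrane genes, which PrE secretes in quantity, 20 were marked in all 6, with 0 higher in DP nEnd and 4 lower without overlap: Col4a1 and Col4a2, which share a peak, Serpinh1 and Itgb1. By normal scores these were 3 and 8, and with equal numbers of peaks 3 and 7. Itgb1, an integrin subunit, lay at 32.7, 48.1 and 33.2 in DP nEnd against 59.4, 53.6 and 51.7. Ihh, a hedgehog ligand, and Hhex, a homeobox gene of the endoderm, lay higher in DP nEnd (80.1 to 81.9 against 49.4 to 70.6, and 75.1 to 79.4 against 39.2 to 62.3). Pth1r, a receptor of parietal endoderm, lay higher in Pdgfra+ nEnd, at 99.9 in all 3 against 99.7. The median over naive pluripotency genes minus that over PrE regulators, with no peak set to 0, was -81.5 ± 7.28 percentile points over the DP libraries and -82.6 ± 13.5 over the Pdgfra+ libraries (SD, n = 3 each). This measure is at its floor in Pdgfra+ nEnd, where the naive median was 0 in all 3 libraries against 9.11, 18.9 and 1.68 in DP nEnd, so it cannot compare the naive genes, and its difference of 1.06 became -8.98 with equal numbers of peaks.

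Of 7 DNA methylation genes tested, 2 lay higher in DP nEnd without overlap and 1 lower (all genes 3.05% and 7.29%). Dnmt3b, a de novo methyltransferase, lay at 66.3, 72.7 and 73.3 in DP nEnd against 63.7, 43.1 and 51.4. Tet1, a methylcytosine dioxygenase, lay at 92.5, 94.2 and 90.2 against 90.0, 87.4 and 81.3, and Tet3 lay lower in DP nEnd at 91.9, 92.4 and 92.0 against 94.9, 96.7 and 97.3. In none of these did limma pass on percentiles (adjusted p of 0.928, 0.924 and 0.537). The lists for glycolysis, oxidative phosphorylation and fatty acid oxidation had 17, 39 and 9 genes tested. Of these, 2, 1 and 0 lay higher in DP nEnd without overlap (all genes 3.05%) and 0, 0 and 1 lower (7.29%). By normal scores these were 5, 8 and 0 higher and 1, 1 and 1 lower, beside 9.76% and 11.1%. With equal numbers of peaks they were 5, 7 and 0 higher and 0, 1 and 2 lower, of 17, 35 and 7 genes, beside 10.2% and 10%. The gene lower by percentile was Acaa2. Slc2a3, a glucose transporter, was at 95.8, 95.4 and 94.8 in DP nEnd against 80.9, 27.0 and 68.5.

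The other lists held 0 calls on either scale, and with so few genes tested their counts are a description beside the 3.05% and 7.29% of all genes. Genes without overlap numbered 2 higher and 3 lower in DP nEnd of 16 Wnt genes, 1 and 0 of 13 epithelial junction genes, 1 and 0 of 8 housekeeping genes, and 0 and 2 of 6 trophectoderm genes. They numbered 2 and 0 of 4 formative epiblast genes, 2 and 0 of 5 visceral endoderm genes, 0 and 1 of 5 parietal endoderm genes, 1 and 0 of 5 early PrE genes and 0 and 2 of 5 late PrE genes.

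Widths leaned to DP nEnd. Promoter peaks had a median width of 4033, 4229 and 3579 bp in DP replicates 1, 2 and 3 and of 3820, 2207 and 3036 bp in the Pdgfra+ replicates (means 3947 ± 333 and 3021 ± 807 bp, n = 3 each, exact two-sided permutation test, p = 0.20). Over the 7088 genes the median log2 difference was 0.40. limma on log2 width called 39 genes wider in DP nEnd (0.55%) and 0 wider in Pdgfra+ nEnd (0%), with 801 at an unadjusted p under 0.05, 1 of these wider in Pdgfra+ nEnd. Libraries did not overlap for 31 of the 39 and for 1075 of all genes (15.2%). The count depended on single libraries. Without Pdgfra+ replicate 2, whose peaks were narrow throughout, 0 genes passed, and 1227 did without Pdgfra+ replicate 1. The count was 2, 2 and 20 without DP replicates 1, 2 and 3, and 1 without Pdgfra+ replicate 3. With each library centred at its own median, an alternative chosen after seeing the data, 20 genes passed wider in DP nEnd (0.282%) and 0 narrower, and 19 of the 39 were among them. After centring, libraries did not overlap for 475 genes wider in DP nEnd (6.7%) and 479 narrower (6.76%).

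Among called genes whose libraries did not overlap, the differences were largest at Glo1, Daxx, Phc1, Usp28 and Rarg, and all 5 also passed after centring. Zbtb22 and Klf3, chosen after their values were seen, had differences as large (1.96 and 1.89) with overlapping libraries, and neither passed after centring (limma adjusted p of 0.345 and 0.210). Glo1 (GRCm38 chromosome 17, 30584936 to 30626871), which detoxifies methylglyoxal, had peaks of 9689, 8795 and 12919 bp in DP nEnd and 2558, 1444 and 1817 bp in Pdgfra+ nEnd, a log2 difference of 2.45 ± 0.370 (SE, limma adjusted p = 2.35e-07). The Daxx peak, at a histone H3.3 chaperone gene, measured 9531, 17653 and 13929 bp against 3972, 2563 and 4290 bp (limma adjusted p = 0.00458) and reaches neighbouring promoters in some libraries. Phc1, a Polycomb subunit gene, had 11987, 13364 and 9018 bp against 3763, 2226 and 3890 bp (limma adjusted p = 0.00458). Usp28, a deubiquitinase gene, had 6837, 9470 and 5892 bp against 2924, 1666 and 1810 bp (limma adjusted p = 0.00227). At Rarg the peaks of 13523, 12617 and 12586 bp in DP nEnd were close to the 13371 to 15018 bp of Oct4+ nEnd, whereas those of Pdgfra+ nEnd measured 4980, 2772 and 3687 bp (limma adjusted p = 0.0113). Of the gene lists, Tet1, Mybl2 and Cdh1 were wider in DP nEnd, but none of the 3 passed after centring. At Mybl2 the libraries overlapped, with 11494, 14779 and 3003 bp in DP nEnd against 4302, 2176 and 2467 bp. Of the 39 genes, 19 shared their peak with another gene in at least 1 library.

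**Figure D5:**
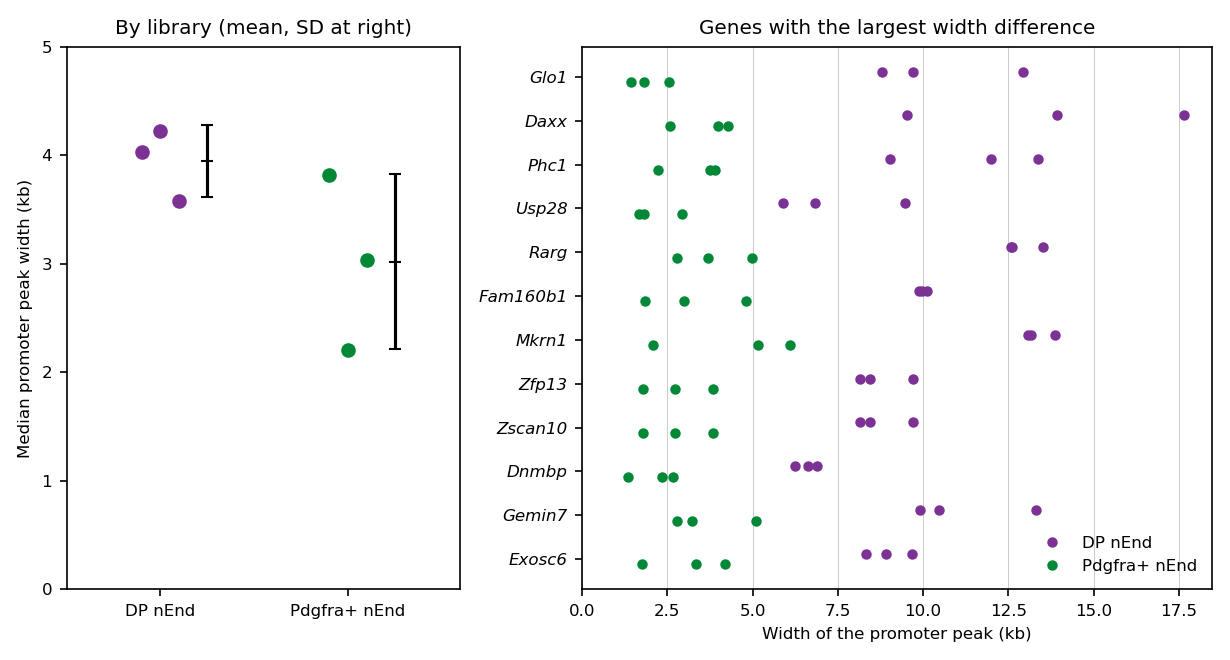
Left, median promoter peak width per library in kb with the mean and SD (n = 3) at the right of each group. Right, width in kb of the peak in each library at the 12 genes with the largest differences among those called without overlap: the DP points lie to the right of the Pdgfra+ points at each gene.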

How the data were processed

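The authors sorted nEnd by FACS, prepared H3K4me3 CUT&Tag libraries, and mapped and called peaks with the tools that the submitters' processing notes name (bcl2fastq 2.19.1, Bowtie2, SAMtools 1.12, deepTools, SEACR and bedtools 2.26.0, build mm10). The deposited peak lists, called per library in the stringent mode against IgG, give the signal of each peak as total and highest coverage, not scaled between libraries. Read depth is not given in these lists, so its effect on peak number and width is unknown and no counting interval was computed. The consensus lists were not used.

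Peaks were assigned to 54361 start sites of 21853 protein-coding genes (GENCODE M21, GRCm38) with an overlap of 1 bp. Genes marked in all 6 libraries entered limma 3.58.1 (R 4.3.3, with trend, Benjamini-Hochberg adjustment over the 7088 genes) on the percentile and on log2 width. Single values per library were compared by exact permutation tests. No source used here ties a replicate number to a shared culture, so p-values measure the spread between these libraries. The fits were tested on simulated data over 7088 genes. Of genes shifted by 10, 20 and 40 percentile points 13.4%, 25.4% and 80.3% were recovered. Of log2 width shifts of 0.5, 1 and 2, the shares were 2.99%, 35.8% and 95.5%. The simulated noise was independent, had the same SD in both populations and shifted no library as a whole. The real libraries differed in this, so these shares may not hold for them. In the data, percentile differences of -51.7 at Ptger3 and 49.6 at Cmip did not pass (limma adjusted p of 0.316 and 0.451). Named were the members of 22 gene lists, the 10 genes per direction marked in 3 of 3 against 0 of 3 libraries with the highest lowest percentile, the 10 genes with the largest called percentile difference and the 5 with the largest called width difference without overlap. The members and lists were chosen with earlier results of these data known. The alternatives were other windows, start sites and numbers of peaks, joined regions, other scales, limma without trend, a replicate block and leaving out each library. Promoter sequences are from RefSeq. A few genes counted in the totals are not reported here by name or in the plots of single genes. Peak assignment, ranking and plots ran in Python 3.11.15 with pandas 2.3.3, scipy 1.17.1, numpy 2.4.6 and matplotlib 3.10.9.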

Additional observations from a re-analysis of the deposited data

How the results depend on the processing

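Depth is unknown and coverage is not scaled between libraries, so the absence of a weak peak may not be read as absence of the mark. The count of genes marked in DP nEnd alone (25) was 85 with equal numbers of peaks per library (that of the shortest list) and 56 with 4000, and 25 to 245 when 1 library was left out, the highest without Pdgfra+ replicate 1. Genes marked in Pdgfra+ nEnd alone (1) were 55 and 50 with these numbers of peaks, 0 when at least 50% of the promoter window had to lie in the peak, and 1 to 30 when 1 library was left out (20 without DP replicate 2, 7 without Pdgfra+ replicate 3 and 30 without Pdgfra+ replicate 2). Calls on the percentile (0 higher in DP nEnd and 0 lower) became 1 and 1 with equal numbers of peaks, 8 and 4 with 4000, 14 and 5 with normal scores or with quantile normalized log2 signal, and 1 and 1 with percentiles among the genes tested, and ranged over 0 to 40 and 0 to 1 when 1 library was left out. Normal score calls (14 and 5) ranged over 1 to 52 and 0 to 8 when 1 library was left out. Calls wider in DP nEnd (39) were 20 after centring and 0 to 1227 when 1 library was left out: 2, 2 and 20 without DP replicates 1, 2 and 3, and 1227, 0 and 1 without Pdgfra+ replicates 1, 2 and 3. Calls wider in Pdgfra+ nEnd were 0 in each. The difference in genes marked per library (102.7) ranged over -742.7 to 1122 when 1 library was left out and turned its sign in 3 of these. The median width difference (926 bp) ranged over 519 to 1326. The difference between naive pluripotency and PrE medians (1.06) became -8.98 with equal numbers of peaks and -14.6 with 4000, and ranged over -4.21 to 8.69 when 1 library was left out.

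Libraries with the same replicate number did not deviate together: the correlations of their deviations from the group means were 0.126, -0.153 and 0.251 for replicates 1, 2 and 3, so the number was not taken as a pairing. With a replicate block, 1 gene was wider in DP nEnd, 0 genes were called on the percentile, and normal scores gave 0 and 0. The block leaves fewer degrees of freedom. Tests of single values gave exact sign-flip p-values over the 3 pairs that cannot go below 0.25.

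Of the named genes, Rarg, Sgk1 and Gemin7 turned their sign by highest coverage, with differences of -9.52, -0.761 and -0.499 percentile points.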

Other observations

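Away from promoters of protein-coding genes, 744 joined regions of the 6 libraries overlapped no promoter window. Start sites of noncoding genes were not considered, so a region may lie at such a start site. Of these, 4 were marked in all 3 libraries of DP nEnd and none of Pdgfra+ nEnd (0.538%) and 0 in the opposite pattern. The region on chromosome 7 from 3215176 to 3224460 lay 25153 bp from the nearest protein-coding start site, that of Nlrp12. It was at the 37.9, 46.1 and 39.4 percentiles in DP nEnd and at 94.4 to 98.5 in Oct4+ nEnd. The region on chromosome 17 from 66477251 to 66486852, 27501 bp from Mtcl1, lay at 26.7, 31.1 and 21.2 in DP nEnd and at 96.2 to 98.3 in Oct4+ nEnd. The region on chromosome 5 from 33525679 to 33538050, 90862 bp from Fam53a, lay at 18.3, 39.6 and 16.5 in DP nEnd and at 94.7 to 99.6 in Oct4+ nEnd. All 4 regions were marked in 4 of 4 Oct4+ libraries. They were named after their values were seen, and the gene each may belong to was not tested.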
